A study of Mus musculus with 30 samples.

Results

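Transcripts of bone marrow haematopoietic stem cells (HSCs) from germ-free mice of 1 year were compared with those from 1-year mice labelled IL1R1 KO, a label that names a knockout of the type 1 interleukin-1 receptor. The comparison holds 6 of the 30 libraries of the series, 2 germ-free and 4 IL1R1 KO, assigned to their groups by their labels. All 16958 genes with a normalized count of at least 10 in at least 3 of the 30 libraries were tested, of 35727 in the table.

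The germ-free group is labelled as bowel germ-free, with the genotype label spelled "Gerfm free" and an age of 1 year. The other group has the genotype label "IL1R1 KO" and the source label "IL1RIKO mouse". The labels name no strain, allele, sex, treatment, housing of the IL1R1 KO mice or sort markers. Libraries of 2-month germ-free mice (3) and IL1R1 KO mice (3), and of 1-year wild-type (WT) mice (5), are used as references. From 4000 to 5000 sorted cells per sample went into Smart-seq2, which copies whole polyadenylated transcripts without marking strand. The series title names interleukin-1 and the microbiome in the inflammatory ageing of HSCs, and the comparison sets mice labelled germ-free against mice labelled as lacking the interleukin-1 receptor. Nothing in the labels ties each library to its own mouse, so the p-values reflect spread between libraries that may be technical.

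HSCs sit at the top of blood formation and are mostly quiescent in adult marrow. Interleukin-1 alpha and beta bind the receptor encoded by Il1r1, which pairs with the accessory protein of Il1rap and signals through Myd88 and the Irak kinases to NF-kB. In HSCs this signalling is known for driving division and myeloid output. Microbial products that reach the marrow can raise interleukin-1 there, and germ-free mice are known for lower basal myelopoiesis.

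Il1r1 RNA did not separate the groups. Il1r1 (ENSMUSG00000026072, chromosome 1, 40225080 to 40317257, GRCm38) had normalized counts of 302 and 297 in the germ-free libraries and 232, 241, 403 and 262 in the libraries labelled IL1R1 KO. The groups overlapped, and the log2 difference was 0.11 ± 0.34 (SE, limma adjusted p = 0.921). In 1-year WT libraries Il1r1 was at 232 ± 46.2 (SD, n = 5), so it was not lower in the KO-labelled libraries than in WT either. An exact two-sided permutation test of germ-free against KO-labelled libraries gave p = 0.867, where the 15 possible splits allow no p under 0.0667. The labels do not name the allele, and counts over the whole gene cannot tell whether the remaining RNA lacks a deleted part, so this check neither backs nor contradicts the label. The group is therefore called the KO-labelled libraries. One of them, replicate 1, is 1 year old by its title and source label but 2 months old by its age label. With that library counted among those of 2 months, 149 genes in place of 259 were called between the 1-year groups.

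HSC genes were high in all 6 libraries, and Procr, Slamf1 and Kit did not pass the test between groups. Procr, the endothelial protein C receptor used to sort HSCs, was at 4295 and 4621 in germ-free and 4428, 5496, 5047 and 5687 in KO-labelled libraries. Slamf1 (CD150) was at 3084 and 3081 against 3638, 3748, 3885 and 3455, and Kit, the stem cell factor receptor, at 17449 and 25799 against 20362, 26125, 22391 and 24849. Cd48, which HSCs lack and progenitors carry, stayed between 18.4 and 150 in the 6 libraries. Mpo, a granule enzyme of myeloid progenitors, ranged widely, at 2126 and 1065 against 1795, 12929.9, 1215 and 632, with replicate 2 of the KO-labelled group far above the others. Ddx3y, a Y-linked gene, was at 2741 and 2978 in germ-free and 3380, 2977, 3612 and 2654 in KO-labelled libraries, high in every library. Estimated depth was 15.6 and 23.9 M reads in the germ-free libraries and 21.0 to 32.9 M in the KO-labelled ones.

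Germ-free HSCs differed from KO-labelled HSCs in 259 genes at 1 year, 87 higher and 172 lower in germ-free (limma on log2(normalized count + 1), Benjamini-Hochberg adjusted p under 0.05). These were 1.53% of the genes tested, 0.513% higher and 1.01% lower. An unadjusted p under 0.05 was reached by 14.2% of the genes tested, 1014 of them higher and 1402 lower in germ-free. The 2 germ-free values lay outside the range of the 4 KO-labelled values for 252 of the 259, against 21.7% of all genes tested. The median size of a called change was 0.89 on the log2 scale, and 107 genes changed by more than 1. The genes lower in germ-free included heat shock and endoplasmic reticulum chaperones, enzymes of sterol synthesis and D-type cyclins, while those higher included genes known to be induced by glucocorticoids. Of the 29 gene lists examined, those of the interferon response, NF-kB, microbial sensing, oxidative phosphorylation and ribosomes gave at most 1 call each.

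The count depended on single libraries. It was 116 without germ-free replicate 1 and 241 without replicate 2, each of which leaves 1 germ-free library assumed to vary like the other groups, and 160, 185, 168 and 251 without KO-labelled replicates 1 to 4. A total of 38 genes (15 higher, 23 lower) were called in all 6 of these fits, and with only the 6 libraries in the fit the count was 67.

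**Figure D1:**
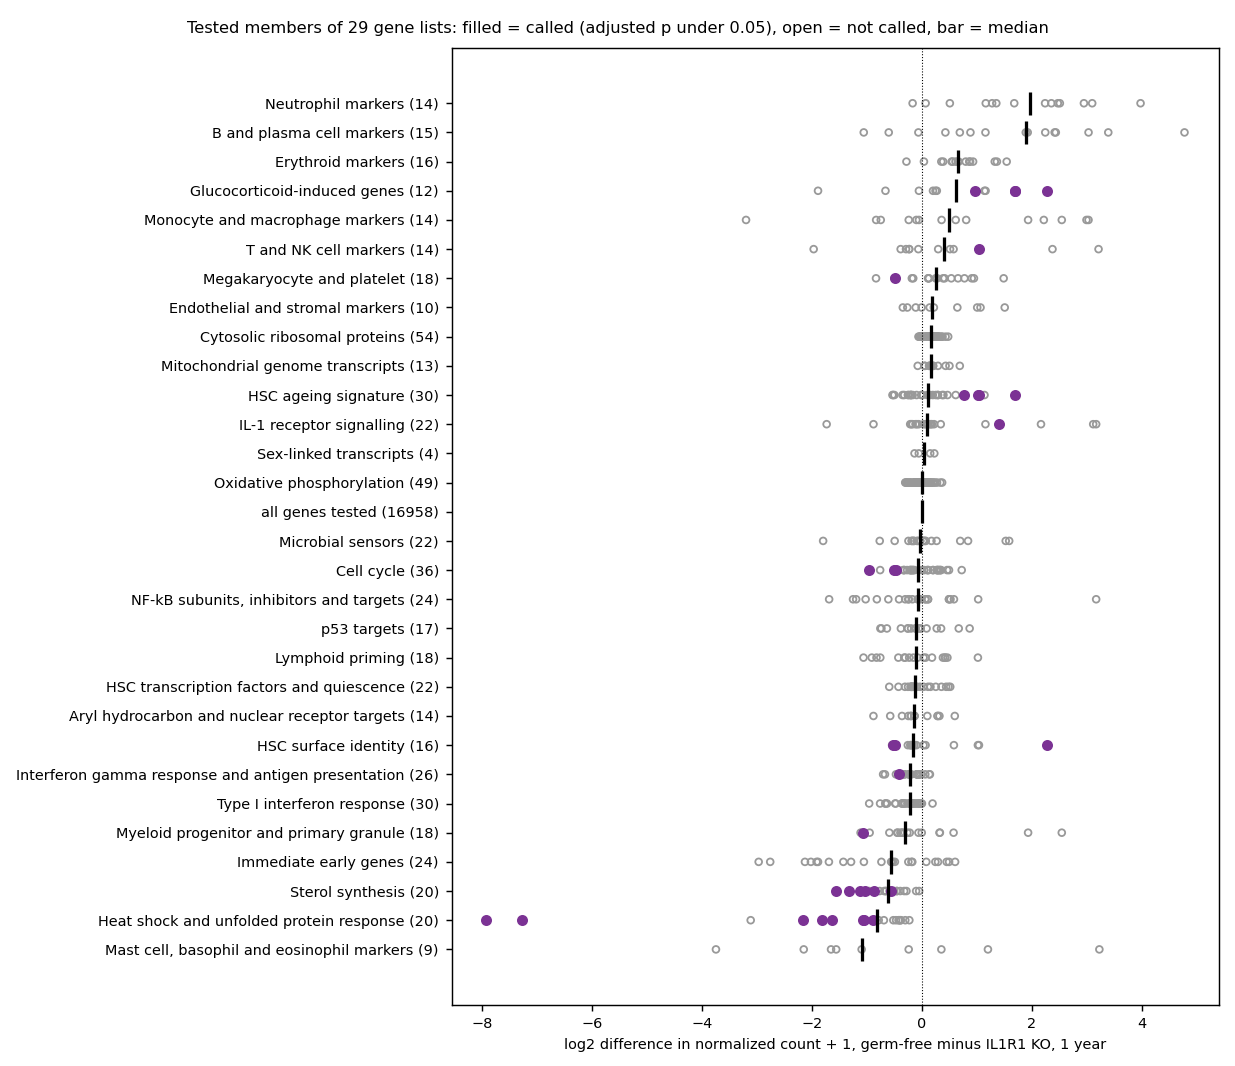
Each row is a gene list with the number of its tested members in parentheses, and each point is a member's log2 difference in normalized count + 1, germ-free minus IL1R1 KO at 1 year. Filled points were called and black bars are list medians. The heat shock and sterol lists lie wholly left of 0, with 8 and 6 called members.

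Stress chaperones were lower in germ-free HSCs, and of the 29 lists theirs had the highest share of members called, 40.0%. All 20 members of the heat shock and unfolded protein response list were lower in germ-free by sign, 8 were called lower and none higher, and the median was -0.81 on the log2 scale against 0.00 over all genes tested. At an unadjusted p under 0.05, 18 of the 20 were lower. Of all genes tested, 1.01% were called lower and 14.2% had an unadjusted p under 0.05 in either direction. Heat shock genes encode chaperones that refold damaged proteins, and in the cytosol they are switched on by Hsf1 binding to heat shock elements. Chaperones of the endoplasmic reticulum are switched on by Atf6 and Xbp1 through endoplasmic reticulum stress elements. Leaving out 1 library at a time gave 3 to 12 calls, all lower, with medians from -0.94 to -0.72.

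The promoters of the chaperone genes were searched for exact matches to these elements. The first 3 lines are the 250 bases before the RefSeq start (GRCm38.p6) of the list members that hold the endoplasmic reticulum stress element (CCAAT, 9 bases of any kind, CCACG), and the fourth is a member that holds the heat shock element (GAA, 2 bases of any kind, TTC, 2 bases, GAA), with the element in capitals on whichever strand it lies, both strands having been searched.
Hspa5 (chr2:34771840-34772089, plus strand): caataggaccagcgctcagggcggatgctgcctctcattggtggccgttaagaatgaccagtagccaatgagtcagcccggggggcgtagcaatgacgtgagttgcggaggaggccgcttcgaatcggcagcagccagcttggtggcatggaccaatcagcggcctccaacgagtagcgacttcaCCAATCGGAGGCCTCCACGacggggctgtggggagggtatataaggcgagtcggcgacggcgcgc
Calr (chr8:84846932-84847181, minus strand): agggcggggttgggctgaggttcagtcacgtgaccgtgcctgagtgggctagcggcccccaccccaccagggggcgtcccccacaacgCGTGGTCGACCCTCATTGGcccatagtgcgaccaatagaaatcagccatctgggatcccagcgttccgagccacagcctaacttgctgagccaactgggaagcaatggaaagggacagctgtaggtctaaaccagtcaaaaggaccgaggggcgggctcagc
Hsp90b1 (chr10:86705445-86705694, minus strand): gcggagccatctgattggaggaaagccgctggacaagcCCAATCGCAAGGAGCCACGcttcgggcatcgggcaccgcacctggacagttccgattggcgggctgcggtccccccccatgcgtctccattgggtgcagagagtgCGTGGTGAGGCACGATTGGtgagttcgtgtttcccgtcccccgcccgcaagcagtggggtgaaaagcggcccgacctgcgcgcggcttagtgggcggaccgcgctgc
Hspd1 (chr1:55087933-55088182, minus strand): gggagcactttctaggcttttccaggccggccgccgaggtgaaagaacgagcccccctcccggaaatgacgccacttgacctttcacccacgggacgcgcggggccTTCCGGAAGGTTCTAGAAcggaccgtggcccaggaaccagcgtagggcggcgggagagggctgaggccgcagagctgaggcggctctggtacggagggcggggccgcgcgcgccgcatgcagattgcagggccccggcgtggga
Of the 20 members, 16 had a promoter entry, and 3 of these held the endoplasmic reticulum stress element, against 0.113% of all 32851 promoters. The full heat shock element was found in 2 of the 16, Hspd1 and Hspe1, which start close together on opposite strands, against 0.466% of all promoters. Counted by gene, as the members are, these shares were 0.159% and 0.487% of tested genes with a promoter entry. No test was run on them. The heat shock element was found in 0 of the 6 called members with a promoter entry. Only exact matches were counted, so the search cannot tell whether a gene without a match holds an inexact element in its window. No match in these windows also says nothing about binding elsewhere.

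Among the cytosolic heat shock genes, Hspa1a, the inducible Hsp70 (ENSMUSG00000091971, chromosome 17, 34969190 to 34972156, GRCm38), was at 75.7 and 351 in germ-free and 20357, 63727, 6812 and 47680.3 in KO-labelled libraries. The lowest KO-labelled value was far above the highest germ-free one, and the log2 difference was -7.28 ± 1.08 (SE, limma adjusted p = 5.31e-04). In 1-year WT libraries Hspa1a was at 339.9 ± 235 (SD, n = 5), near the germ-free level. Its neighbour Hspa1b, nearly the same protein, was at 15.2 and 0 against 731, 2483, 197 and 2492, a difference of -7.92 (adjusted p = 0.00116). Of the 100-base windows of Hspa1a transcripts, 48.6% also occur in another gene, Hspa1b or Hspa1l, so the split between these genes is uncertain. Hspa1a kept its call in all 6 fits without 1 library, and Hspa1b lost its call without germ-free replicate 2 (adjusted p = 0.0631).

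Dnajb1, the Hsp40 partner that feeds substrates to Hsp70, was at 8999 and 7153 in germ-free and 24242, 52915, 17566 and 28039 in KO-labelled libraries (-1.81 ± 0.37, adjusted p = 0.0108). Hsph1, a nucleotide exchange factor for Hsp70, was at 673 and 679 against 5030.1, 4800.1, 2033 and 1749 (-2.17 ± 0.47, adjusted p = 0.0153). Both were lower in each germ-free library than in every KO-labelled one. Hspa8, the constitutive Hsp70 (-0.89, adjusted p = 0.0329), and Hsp90aa1, the stress-inducible Hsp90 (-1.05, adjusted p = 0.0228), were also lower, while Hsp90ab1, the constitutive Hsp90, did not pass (-0.42, adjusted p = 0.0943). Dnajb1 and Hsph1 lost their calls without either germ-free library, at adjusted p values up to 0.0961 and 0.118. Hsf1 itself, the transcription factor, was at 2609.6 and 2704 against 3539, 2902, 3602 and 3109 and did not pass the test (-0.30, adjusted p = 0.215).

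In the endoplasmic reticulum, Hspa5 (BiP), the main luminal Hsp70, was at 11202 and 12656 in germ-free and 40897, 58656, 31513 and 24549.7 in KO-labelled libraries (-1.63 ± 0.24, adjusted p = 2.05e-04). Calr, the lectin chaperone calreticulin, was at 4508 and 6655 against 12402, 12979, 10168 and 10847 (-1.08 ± 0.17, adjusted p = 5.84e-04). These are 2 of the 3 genes printed with the endoplasmic reticulum stress element. The third, Hsp90b1, was at 5396 and 5745 against 9295, 9037, 7441 and 6481 and missed the threshold (-0.52, adjusted p = 0.0556). The regulators of this arm did not pass: Atf4 was at -0.47 (adjusted p = 0.574), Ddit3 at -0.78 (adjusted p = 0.0896) and Xbp1 at -0.23 (adjusted p = 0.6). Hspa5 kept its call in all 6 fits without 1 library, and Calr lost its call without germ-free replicate 1 (adjusted p = 0.083).

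Set against WT mice of 1 year, which share libraries with the main comparison and so add no independent support, 7 of the 20 genes were called higher in KO-labelled libraries (1.3% of all genes were called in that comparison, 0.666% higher and 0.637% lower). In germ-free against WT, 1 of 20 was called lower (4.96% of all genes called, 1.83% higher and 3.13% lower), which was Calr (-0.82, adjusted p = 0.00578). The difference from WT was 6.52 for Hspa1a in KO-labelled and -0.76 in germ-free libraries, and for Hspa5 1.18 and -0.46. The KO-labelled group at 2 months had Hspa1a at 71138 to 122345, while at 2 years it was at 182 to 1692. WT libraries of 2 months were between these, at 3427 to 16176. The level was thus highest in the KO-labelled libraries of 2 months. Those of 1 year, at 6812 to 63727, overlapped with WT of 2 months. The 2-year ones overlapped with WT of the same age, at 703 to 5168.

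The summed level of the heat shock list was 223390 and 224933 in the germ-free and 346298 to 611394 in the KO-labelled libraries, so it did not overlap between the groups. When the list's mean log2 level was added to the fit as a covariate, a step chosen after seeing the data, 3 of the 259 genes were still called, Mettl7a2, Gm3226 and Stk25. With the covariate 254 of the 259 differences had the same sign, and their median size was 0.80 against 0.89 without the covariate. The sterol median was -0.64 and the glucocorticoid median 0.95 in that fit, both with the sign they had without the covariate. Some other list medians changed sign. They went from -0.55 to 0.96 for immediate early genes and from -0.31 to 1.00 for myeloid progenitor genes. For type I interferon genes the change was from -0.21 to 0.11, and for interferon gamma genes from -0.21 to 0.16. Whether any of these genes follow the chaperones was not tested. The list levels of the groups do not overlap, so what moves with the chaperones and what moves with the label cannot be told apart here.

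**Figure D2:**
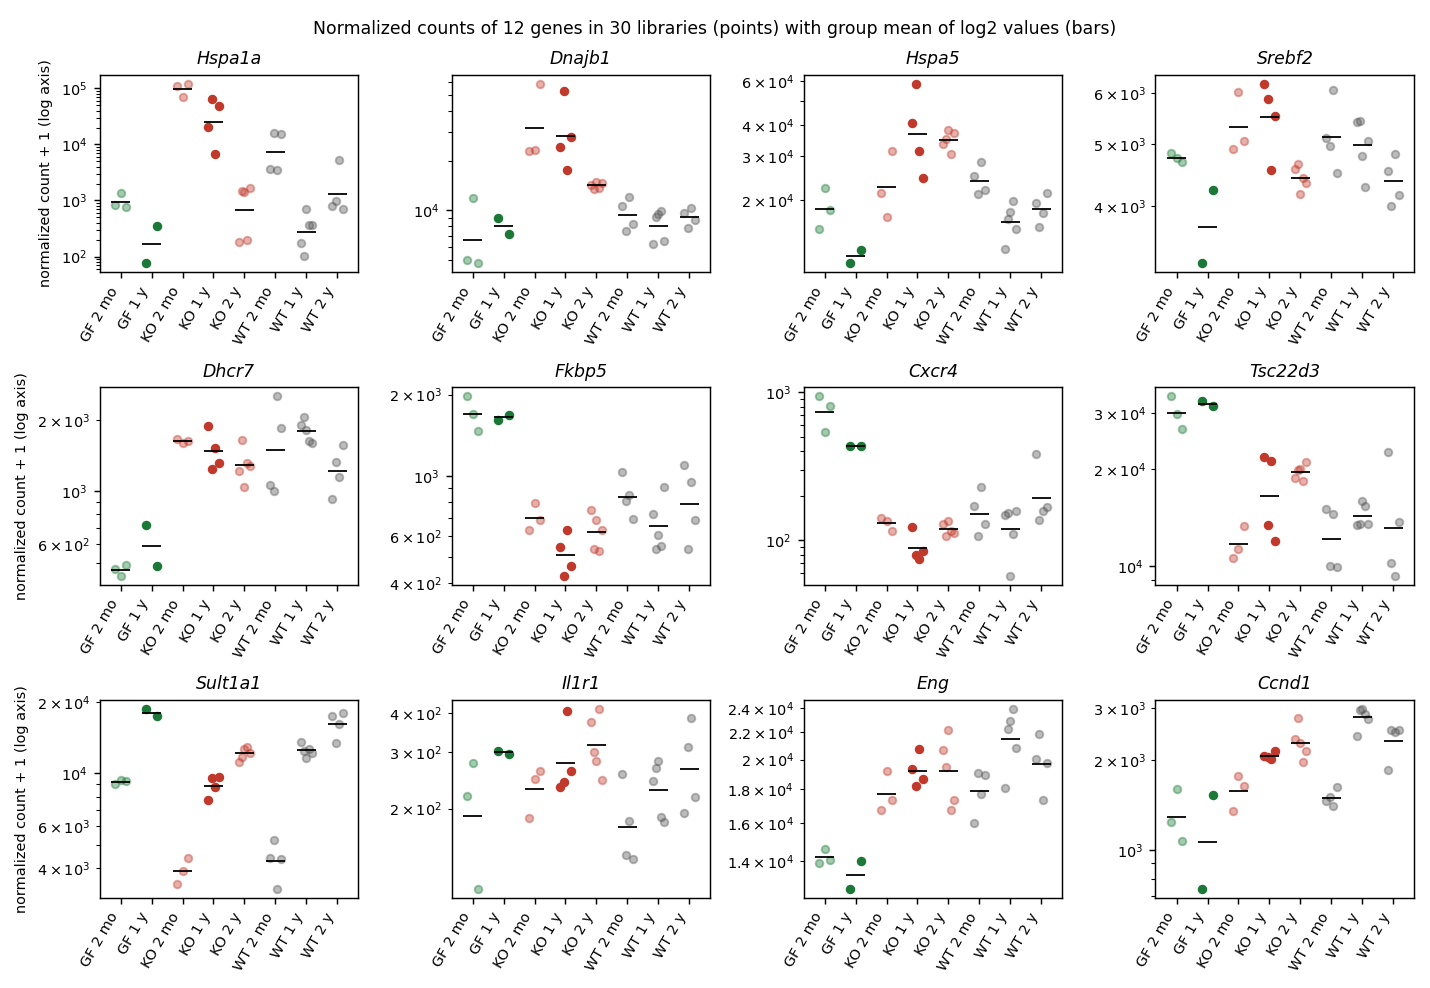
Normalized count + 1 on a log axis for 12 genes in all 30 libraries by group (GF germ-free, KO labelled IL1R1 KO, WT wild type, mo months, y years), with solid points for the 2 groups compared and bars for the group mean of log2 values. Hspa1a is high in KO-labelled libraries at 2 months and 1 year, and Fkbp5 and Cxcr4 are high in both germ-free groups.

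Of the 20 listed genes of sterol synthesis, 6 were called lower in germ-free HSCs, against 1.01% of all genes tested. This pathway makes cholesterol from acetyl-CoA and is switched on by the transcription factor of Srebf2 when cell sterols are low. All 20 members were lower by sign, none was called higher, 14 were lower at an unadjusted p under 0.05, and the median was -0.62. Leaving out 1 library at a time gave 2 to 7 calls, all lower, with medians from -0.78 to -0.42.

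Dhcr7, which catalyses the last step to cholesterol in one branch, was at 720.1 and 481 in germ-free and 1885, 1244, 1530.1 and 1322 in KO-labelled libraries (-1.32 ± 0.26, adjusted p = 0.00638). Every germ-free value was below every KO-labelled one. Srebf2 itself fell less, from 6217, 5884, 4564 and 5524 in KO-labelled to 3264 and 4236 in germ-free libraries (-0.57, adjusted p = 0.0187). Further called members were Msmo1, a sterol demethylase (-1.12, adjusted p = 0.0228), Hmgcs1, an early enzyme of the pathway (-1.03, adjusted p = 0.0296), and Idi1, the isopentenyl isomerase (-0.87, adjusted p = 0.0437). Dhcr7 lost its call without germ-free replicate 2 (adjusted p = 0.119), Srebf2 without germ-free replicate 1 or KO-labelled replicate 1 (up to 0.367), and Msmo1 and Idi1 in 3 and 5 of the 6 fits (up to 0.238 and 0.594).

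Dhcr7 was at 1808 ± 195 (SD, n = 5) in WT, with a difference from WT of -1.61 in germ-free (adjusted p = 3.99e-04) and -0.29 in KO-labelled libraries (adjusted p = 0.637). It passed the test against WT in germ-free libraries and missed it in KO-labelled ones.

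Some genes known to be induced by glucocorticoids were higher in germ-free HSCs. Corticosterone acts through a nuclear receptor that switches on Fkbp5, Tsc22d3 and Per1, among others, in many tissues, and Cxcr4 and the metallothioneins are also induced. Of 12 members, 4 were called higher and none lower, and the median was 0.62. Over all genes tested 0.513% were called higher. At an unadjusted p under 0.05, 6 members were higher and 1 was lower. The summed level of the list went the other way, at 66804 and 66926 in germ-free and 86295 to 140752 in KO-labelled libraries. By mean log2 level germ-free was higher, at 10.54 and 10.55 against 9.54 to 10.48. Neither measure overlapped between the groups.

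Fkbp5, a co-chaperone of the receptor that limits its action, was at 1612 and 1679 in germ-free and 545, 426, 629 and 465 in KO-labelled libraries (1.69 ± 0.24, adjusted p = 1.50e-04). Cxcr4, the receptor for the niche chemokine Cxcl12, was at 429 and 429 against 121, 79.2, 73.8 and 83.8 (2.28 ± 0.39, adjusted p = 0.00114). Tsc22d3, which encodes the anti-inflammatory protein GILZ, was at 32718 and 31525 against 21877, 13363, 21238 and 11944 (0.96 ± 0.25, adjusted p = 0.0447). For all 3, both germ-free values were above every KO-labelled value. Mt2, a metallothionein that binds zinc, was at 737 and 520.4 against 263, 221, 182 and 124 (1.70, adjusted p = 0.0437), and its neighbour Mt1 missed the threshold (1.14, adjusted p = 0.0505). Fkbp5 and Cxcr4 kept their calls in all 6 fits without 1 library, while Tsc22d3 lost its call in 4 and Mt2 in 5 (adjusted p up to 0.25 and 0.322).

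Not all members moved this way. Per1, a clock gene, was at 3703 and 3918 against 6392, 2644, 4862 and 1204 (0.27, adjusted p = 0.85), with overlapping groups. Dusp1, a phosphatase that is also an immediate early gene, was at 20377 and 22218 against 58876, 119420, 79313 and 69041 (-1.89, adjusted p = 0.138). In 1-year WT libraries Fkbp5 was at 664 ± 157 (SD, n = 5) and Cxcr4 at 125 ± 42.6 (SD, n = 5), both near the KO-labelled level, whereas Mt2 was at 511 ± 85.5 (SD, n = 5), near the germ-free level. The palindromic glucocorticoid element (G, any base, ACA, 3 bases of any kind, TGT, any base, C) was found before the start of 2 of the 11 members with a promoter entry, Mt1 and Sgk1, against 0.387% of all promoters, and in none of the 4 called members. Counted by gene, 0.336% of tested genes with a promoter entry held it. Inexact elements were not counted here either.

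Among HSC surface genes, 3 of 16 were called, against 1.53% of all genes tested. Eng, a co-receptor for TGF-beta, was at 12688 and 13992 in germ-free and 19310.4, 18229, 20768 and 18699 in KO-labelled libraries (-0.53 ± 0.11, adjusted p = 0.0111). It was lower in germ-free without overlap, and Cxcr4, described with the glucocorticoid genes, was higher. Without germ-free replicate 1 Eng was not called (adjusted p = 0.172), and the same held with quantile normalization. Of 22 HSC transcription factors and quiescence genes, none was called by limma (3 higher and 1 lower at an unadjusted p under 0.05), with a median of -0.12.

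Of 30 tested genes known to rise in ageing HSCs, 4 were called, all higher in germ-free (0.513% of all genes tested were called higher). The list was compiled from general knowledge. The list median was 0.11, with 17 members positive and 13 negative. Sult1a1, a sulfotransferase, was at 18624 and 17463 against 7747, 9554, 8778 and 9647 (1.02 ± 0.13, adjusted p = 4.65e-05). Itgb3, the integrin beta 3 chain, was at 4349 and 4843 against 2821, 2447, 2657 and 2881 (0.77 ± 0.17, adjusted p = 0.0145). Klrb1c (NK1.1), a lectin receptor, was at 1456 and 1758 against 811, 579, 903 and 852 (1.04, adjusted p = 0.0428), and Mt2 is the fourth. Sult1a1 kept its call in all 6 fits without 1 library, Itgb3 lost it without either germ-free library (adjusted p up to 0.112) and Klrb1c in 5 fits (up to 0.204).

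Other ageing markers did not pass the test. Selp (P-selectin), which is strongly raised in old HSCs, was at 6523 and 7443 against 10593, 8317, 11679.8 and 9160.5 (-0.50, adjusted p = 0.245), below the WT level of 15176 ± 2226 (SD, n = 5) in both. Vwf, which marks platelet-biased HSCs, was at 11049.9 and 5674 against 7585, 4843, 7139 and 7465 (0.25, adjusted p = 0.599). Against WT at 1 year, 11 of the 30 were called lower in KO-labelled and none higher, and in germ-free 7 were called lower and 1 higher. Over all genes tested, 0.637% were called lower and 0.666% higher in KO-labelled libraries. In germ-free libraries these shares were 3.13% lower and 1.83% higher. Itgb3 was at 4790.4 ± 850.4 (SD, n = 5) in WT, with differences from WT of -0.04 in germ-free and -0.81 in KO-labelled libraries (adjusted p = 0.913 and 5.39e-04).

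In the interleukin-1 pathway 1 of 22 genes was called, and it belongs to the receptor of the related cytokine interleukin-18. The share called over all genes tested was 1.53%. Il18rap, the accessory chain of the interleukin-18 receptor, was at 1771 and 1798 in germ-free and 936, 608, 596 and 621 in KO-labelled libraries (1.40 ± 0.29, adjusted p = 0.0092). It lies on chromosome 1 within 1 Mb of Il1r1, where 1 of 16 tested genes was called, and within 5 Mb 1 of 71 was (1.41%). The call was lost without either germ-free library (adjusted p up to 0.0884). Its partner Il18r1 was at 152 and 74.9 against 31.3, 48.8, 16.8 and 10.6 and did not pass (2.17, adjusted p = 0.363). The accessory protein gene Il1rap was at 453 and 1095 against 763, 838, 598 and 825 (-0.09, adjusted p = 0.93), and the adaptor Myd88 at 2791 and 2682 against 2841, 2695, 2810 and 2382 (0.03, adjusted p = 0.951). The ligands were near the detection limit, with Il1b at 11.3 and 21.5 against 1.71, 0, 3.34 and 0 and Il1a at 1.75 and 1.12 against 6.85, 4.31, 10.7 and 7.55.

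Downstream and parallel inflammatory genes gave few or no calls by limma. None of 24 NF-kB genes was called (2 higher and 2 lower at an unadjusted p under 0.05, median -0.07). The shares over all genes tested were 1.53% called and 14.2% at an unadjusted p under 0.05. Nfkbia, the inhibitor that NF-kB induces, was at 9178 and 7408 against 6476, 5807, 5778 and 5429.5 (0.49, adjusted p = 0.304). None of 22 microbial sensors (1 higher and 2 lower unadjusted, median -0.03) and none of 30 type I interferon genes (0 higher and 3 lower unadjusted, median -0.21) was called. Of 26 interferon gamma and antigen presentation genes, Psmb10, a subunit of the immunoproteasome, was called lower, at 3707 and 2826 against 4218, 4462, 4403 and 4300.1 (-0.42, adjusted p = 0.0485), a call lost in 5 of the 6 fits without 1 library (up to 0.435). Cd74, the invariant chain of MHC class II, was at 7018 and 9959.8 against 11709, 14457, 12987 and 15681 and did not pass (-0.70, adjusted p = 0.321). Of the type I interferon genes, 28 of 30 were negative by sign. Of the 26 interferon gamma and antigen presentation genes 23 were negative, with 0 higher and 7 lower unadjusted and a median of -0.21. That median depended on the scaling, running from -0.21 to 0.003 over 2 other scalings, while the type I median ran from -0.22 to -0.21. The summed level of these 26 was 461477 and 503823 in germ-free and 533831 to 584732 in KO-labelled libraries, without overlap. The sum over all genes was also lower in germ-free, at 27.8 and 27.7 M against 28.8 to 30.1 M. A low number of calls in these lists does not by itself show that the groups were alike.

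Immediate early genes, the first to be transcribed when a cell is stimulated or handled, had a median of -0.55 with none of 24 called (0 higher and 4 lower unadjusted). Their summed level was 323447 and 329182 in germ-free and 514342 to 937675 in KO-labelled libraries, without overlap. By mean log2 level the groups did overlap, at 11.53 and 11.60 against 11.53 to 12.80. With that mean level as a covariate 242 genes were called between the groups. Klf6 was at 7853 and 8897 against 27274, 42313, 26061 and 17621 (-1.69, adjusted p = 0.216), and Fos at 57738 and 61403 against 181829, 211823, 166091 and 102868 (-1.43, adjusted p = 0.566). WT libraries of 1 year varied widely in these genes, with Fos at 79514 ± 60094 (SD, n = 5).

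Cyclins D1 and D2 and their kinase Cdk4, which drive cells through early G1, were lower in germ-free HSCs. They were the 3 called members of 36 cell cycle genes (3 higher and 6 lower at an unadjusted p under 0.05), with a list median of -0.06. Of all genes tested, 1.01% were called lower and 14.2% had an unadjusted p under 0.05. Ccnd1 (cyclin D1) was at 738 and 1527 against 2063, 2047, 2019 and 2155 (-0.96 ± 0.19, adjusted p = 0.00683), and Ccnd2 (cyclin D2) at 13947 and 12715 against 17827, 18536, 19336 and 18193 (-0.47 ± 0.10, adjusted p = 0.0111). Their partner kinase Cdk4 was at 9224 and 9125 against 14108, 11973, 13852 and 12424 (-0.51, adjusted p = 0.0412). In all 3 the germ-free values were below every KO-labelled value. Without 1 library, Ccnd1 lost its call only for germ-free replicate 1 (adjusted p = 0.413), Ccnd2 only for germ-free replicate 2 (adjusted p = 0.112), and Cdk4 in 4 of 6 fits (up to 0.197). Cdk6 was on the other side without passing, at 10549 and 9980.3 against 7533, 6738, 7313 and 7601 (0.49, adjusted p = 0.126), and so was Mki67, a marker of cycling cells, at 2964 and 3147 against 2898, 2470.4, 1996 and 1706 (0.46, adjusted p = 0.284).

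Among the largest single changes were genes at or near 0 in 1 of the groups. Mettl7a2, a putative methyltransferase gene (chromosome 15, 100353200 to 100361840), was at 0 in both germ-free libraries and at 54.7, 126, 84.4 and 133 in the KO-labelled ones (adjusted p = 5.39e-08). It was near 0 in WT too, at 0.169 ± 0.378 (SD, n = 5), so the KO-labelled group stands apart. Skint3, a member of the thymic Skint family, went the other way, at 175 and 189.9 in germ-free, 92.3 ± 26.3 (SD, n = 5) in WT and 13.4, 0, 0 and 1.03 in KO-labelled libraries (6.30 ± 0.72, adjusted p = 5.29e-06). Hist1h4m, a histone H4 gene, was at 0 in both germ-free libraries, 48.5, 80.5, 27.1 and 67.5 in KO-labelled and 31.9 ± 12.7 (SD, n = 5) in WT libraries, so here germ-free stands apart (adjusted p = 1.19e-06). All 3 kept their calls in the 6 fits without 1 library. Shared sequence limits these values, since 50.4% of the windows of Mettl7a2 and 88.1% of those of Hist1h4m occur in another gene.

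Several further rises set germ-free libraries above both other groups. Cep85, a centrosomal protein gene, was at 6170.4 and 5406 against 1833, 1355, 1285 and 1189 (2.05, adjusted p = 7.19e-04) and 1423 ± 619 (SD, n = 5) in WT. Hist1h2ad was at 3163 and 2734 against 527, 355, 269 and 371 (2.99, adjusted p = 0.00691), with 63.6% of its windows shared with other histone genes. Mylk3, a myosin light chain kinase, was at 1021 and 380.5 against 57.3, 125, 126 and 127 (2.58, adjusted p = 0.00978), and Pbld1 at 653 and 933 against 169, 306, 233 and 301 (1.67, adjusted p = 0.0213). In WT libraries Mylk3 was at 95.1 ± 58.9 (SD, n = 5) and Pbld1 at 241 ± 68.2 (SD, n = 5), below every germ-free value, and Hist1h2ad at 329.6 ± 356 (SD, n = 5). Ypel4, Dlg3, Pde8b and Krt222 completed the 12 largest rises, at differences of 2.66, 2.22, 2.18 and 3.66. Cep85 kept its call in all 6 fits without 1 library. Hist1h2ad and Mylk3 lost theirs without germ-free replicate 1 (adjusted p = 0.0909 and 0.266), and Pbld1, Ypel4, Dlg3 and Pde8b in 3 fits each and Krt222 in 4.

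Falls at low levels included immune genes. Tnfsf11 (RANKL), the osteoclast cytokine, was at 6.74 and 0 in germ-free and 48.3, 79.3, 68.6 and 30.5 in KO-labelled libraries (-4.29 ± 0.86, adjusted p = 0.00717). Aoah, an enzyme that inactivates bacterial lipopolysaccharide, was at 14.5 and 0 against 50.8, 152, 40.9 and 43.7 (-3.98 ± 0.83, adjusted p = 0.0102). Both had germ-free values of at most 14.5, below every KO-labelled value. Adamts1, a secreted protease, was at 33.0 and 141 against 853, 877, 413 and 428 (-3.12, adjusted p = 0.00557), with WT at 150 ± 57.4 (SD, n = 5), and Ldb2 at 14.3 and 12.4 against 92.0, 88.6, 82.3 and 114 (-2.72, adjusted p = 0.00428). Xlr3a, Car12, Ttc34 and Hist1h4c had log2 differences of -3.48, -3.32, -4.41 and -2.73. Ldb2 kept its call in all 6 fits without 1 library. Tnfsf11 and Aoah lost theirs without germ-free replicate 2 (adjusted p = 0.183 and 0.294) and Adamts1 without germ-free replicate 1 (adjusted p = 0.242), and Xlr3a, Car12, Hist1h4c and Ttc34 lost theirs in 2, 3, 3 and 5 fits.

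**Figure D3:**
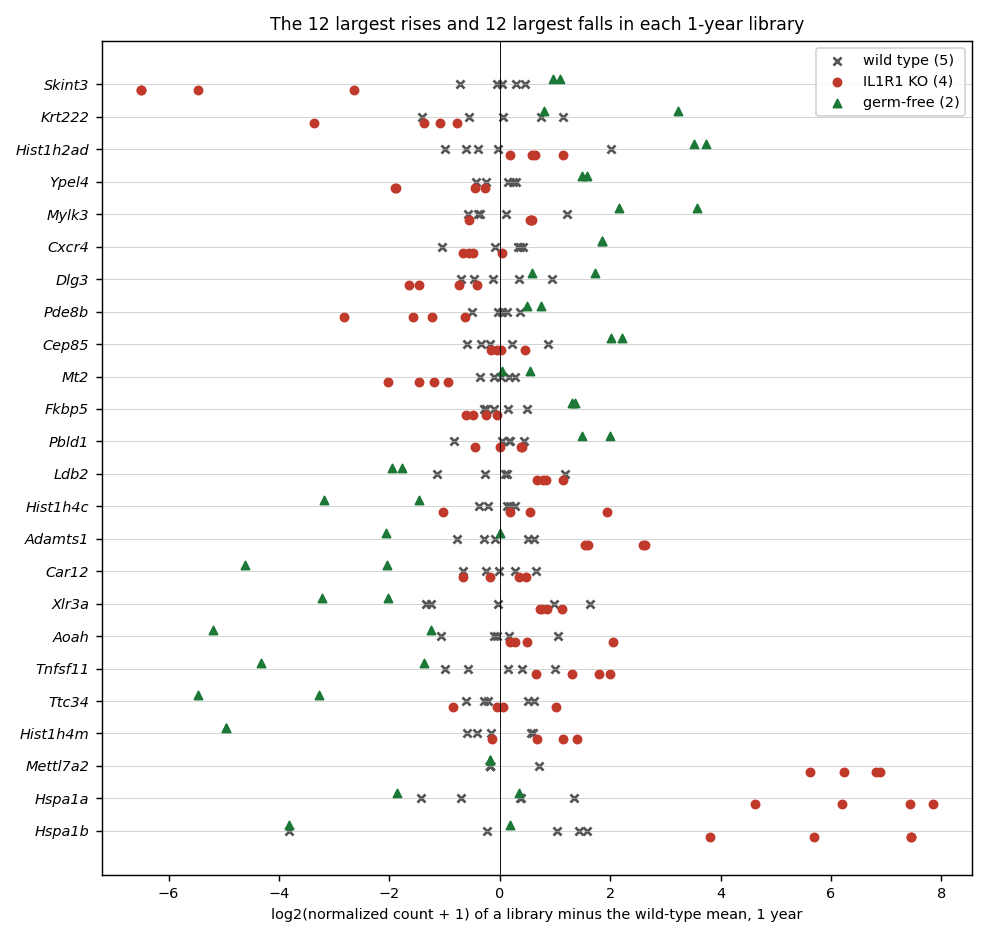
Each point is a 1-year library's log2(normalized count + 1) minus the mean of the 5 WT libraries, for the 12 largest rises and 12 largest falls in germ-free against IL1R1 KO. For Skint3, Mettl7a2, Hspa1a and Hspa1b the KO-labelled circles lie far from WT, and for Hist1h4m, Cep85 and Fkbp5 the germ-free triangles do.

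Part of the 1-year difference was also found at 2 months, between other libraries of both groups. At 2 months 228 genes were called (1.34% of those tested), 88 higher (0.519%) and 140 lower (0.826%), and 73 were called at both ages. Of these, 72 had the same sign (35 higher, 37 lower), which is 27.8% of the 1-year calls and 31.6% of the 2-month calls. By sign alone, 225 of the 259 genes (86.9%) had the same direction at 2 months, against 59.9% of all genes tested.

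Fkbp5 was higher by 1.28 at 2 months (adjusted p = 0.00154) and Cxcr4 by 2.50 (adjusted p = 1.15e-04). Hspa1a was at -6.70 (adjusted p = 5.92e-04), and Dhcr7 at -1.81 (adjusted p = 4.02e-05). All 4 were called at both ages. Pik3ip1, an inhibitor of PI3 kinase, and Acadl, an acyl-CoA dehydrogenase, were higher at both ages, at 1.06 and 0.89 for Pik3ip1 and 0.87 and 0.86 for Acadl. Stk25, a Golgi kinase, Bin2 and Tuba1c, an alpha tubulin, were lower at both ages, at -1.30 and -1.47, -0.76 and -0.68, and -1.12 and -1.36. At 2 months the heat shock list had 7 members called lower and 1 higher (Xbp1), the sterol list 5 lower and the glucocorticoid list 6 higher.

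Other genes were called at 1 year and not at 2 months. Hspa5 was at -0.29 at 2 months (adjusted p = 0.588), Adamts1 at -0.59 (adjusted p = 0.677) and Ccnd1 at -0.30 (adjusted p = 0.471). The difference between ages did not pass for them, at adjusted p = 0.187, 0.415 and 0.525. That test, an interaction of age and group, called 2 genes in all (0.0118% of those tested). Clca3a1, a calcium-activated chloride channel regulator, differed by 0.99 at 1 year and by -0.65 at 2 months (interaction 1.63 ± 0.21, adjusted p = 3.08e-04). Its range was 873 to 979 at 2 months and 6272 to 7188 at 1 year in germ-free libraries, and 1099.6 to 1729.9 and 3298 to 3464 in KO-labelled ones. Rbpjl was at 0 to 3.50 in 2-month and 413 to 536 in 1-year germ-free libraries, and at 13.3 to 217 and 197 to 601 in KO-labelled ones (interaction 5.27 ± 0.90, adjusted p = 0.022).

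**Figure D4:**
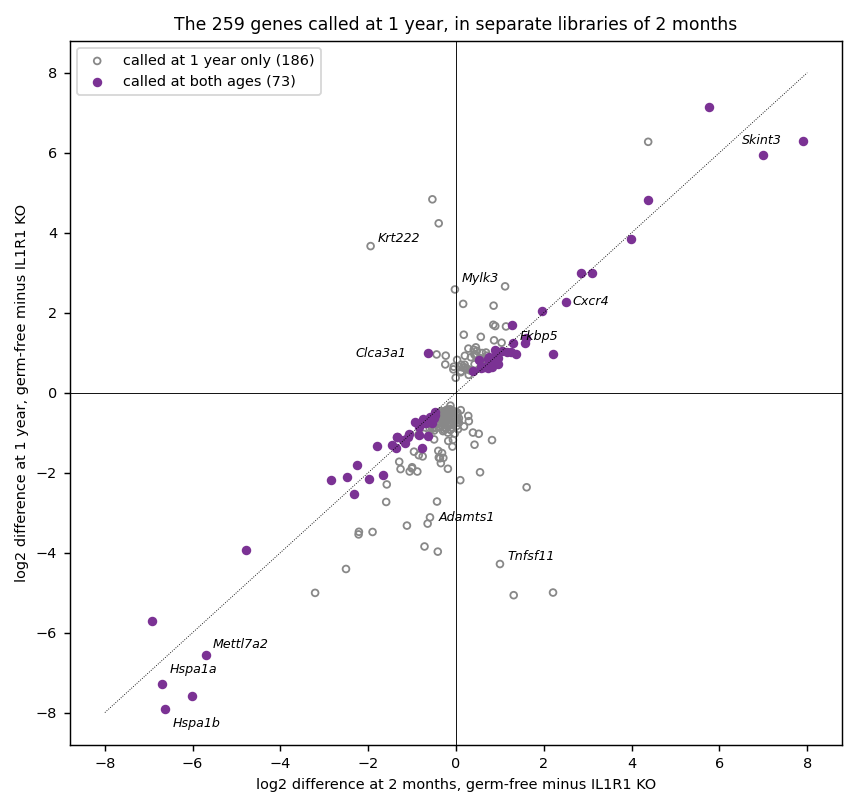
Log2 differences, germ-free minus IL1R1 KO, at 1 year (vertical) and 2 months (horizontal) for the 259 genes called at 1 year, with filled points for the 73 also called at 2 months and a dotted line of equality. Of the 73 filled points all but Clca3a1 have 1 sign at both ages, while Krt222 and Tnfsf11 have opposite signs.

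Markers of other cell types gave 1 call, Klrb1c among 14 T and NK cell genes, where 1.53% of all genes tested were called. The summed level of 14 neutrophil markers was 3352 and 5254 in germ-free and 644 to 9420 in KO-labelled libraries, with 0 of 14 called or at an unadjusted p under 0.05 (median 1.96). For 15 B and plasma cell markers it was 4214 and 28104 against 1541 to 15670, with 0 called, 1 higher unadjusted and a median of 1.89. Much of this spread was immunoglobulin RNA, with Igkc at 908 and 13896 against 279, 11.4, 10738 and 6.56. Summed monocyte and macrophage markers were at 14382 and 14475 against 13151 to 20234, with 0 of 14 called (1 higher unadjusted), and erythroid markers at 64897 and 79169 against 67915 to 80799.5, with 0 of 16 called (1 higher and 1 lower unadjusted). These sums overlapped between the groups. Most of the erythroid sum was Car2, at 53182 and 50998 in germ-free libraries. Against WT, 7 of the 16 erythroid markers were called higher in germ-free (1.83% of all genes) and 6 in KO-labelled libraries (0.666%), with median differences of 3.11 and 1.99. Klf1, an erythroid transcription factor, was at 758 and 1099 in germ-free, 467, 683, 511 and 390.5 in KO-labelled and 162 ± 76.3 (SD, n = 5) in WT libraries. Between germ-free and KO-labelled libraries 15 of the 16 were positive, with a median of 0.66. The part of these markers in the values set against WT was not tested.

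T and NK markers did not overlap, at 3151 and 3281 in germ-free and 1786 to 2662 in KO-labelled libraries, and Klrb1c itself makes up a large part of that sum. The T cell gene Cd3e was at 0 and 2.13 against 0, 0, 0 and 20.8. Mast cell, basophil and eosinophil markers (0 of 9 called, none unadjusted) and endothelial and stromal markers (0 of 10, 1 higher unadjusted) also overlapped, at sums of 196 and 349 against 112 to 6148.5 for the first and 10544 and 13449 against 12647 to 14014 for the second. With the neutrophil and myeloid marker level as a covariate 229 genes were called. In bulk RNA, fewer cells of a type and less RNA per cell cannot be told apart.

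The other lists gave few calls by limma, where 1.53% of all genes tested were called and 14.2% had an unadjusted p under 0.05. There was 1 call among 18 megakaryocyte and platelet genes and 1, Calr, among 18 myeloid progenitor genes. There were no calls among 18 lymphoid priming genes (1 higher and 3 lower at an unadjusted p under 0.05), 17 p53 targets (2 and 0), 49 oxidative phosphorylation genes (2 and 3), 13 mitochondrial genome transcripts (1 and 0), 54 cytosolic ribosomal protein genes (5 and 0), 14 aryl hydrocarbon and nuclear receptor targets (1 and 0) and 4 sex-linked transcripts (0 and 0). The ribosomal protein genes had a median of 0.17, with 48 of 54 positive, and the mitochondrial transcripts one of 0.17, with 12 of 13 positive. Without 1 library these medians ran from -0.01 to 0.38 and from 0.08 to 0.33.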

How the data were processed

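Bulk Smart-seq2 libraries of sorted bone marrow HSCs were read as single ends of 100 bases, with about 20 M reads planned per library, per the labels' protocols. The authors deposited gene counts divided by a factor per library, a normalized signal with 1 column per library. The submitters' processing notes list FastQC 0.11.9, cutadapt 2.10, Salmon 1.2.0.0, DESeq2 1.26.0 and build GRCm38 (mm10), with no role or order. Whole reads could not be recovered, since 9.6 to 18.4% of low values (below 20 reads) lay within 0.001 of a step, so a count test was not run. The number of reads per library was estimated from the value that 1 read is worth, and ranged from 15.6 to 56.3 M over the 30 libraries.

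Values were taken as log2(value + 1) after keeping genes at 10 or more in at least 3 libraries. A linear model with 8 group means over the 30 libraries was fitted with limma 3.58.1 (R 4.3.3, with trend and robust settings), leaving 22 residual degrees of freedom. All p-values are two-sided and adjusted by Benjamini-Hochberg over the 16958 genes, with a threshold of 0.05. The script was tested on simulated data. The 5 contrasts were germ-free against IL1R1 KO at 1 year and at 2 months, their difference, and each 1-year group against WT. Germ-free, IL1R1 KO and WT libraries enter more than 1 contrast, so no overlap between those is given.

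The comparison and the 29 gene lists were chosen with earlier results of these data known. Named genes are Il1r1, the 12 largest rises and falls among called protein-coding genes without overlap and with a mean of at least 50 in 1 group, up to 3 called members per list, genes called at both ages, and a set of HSC, cycle and sex-linked genes. Further members of the lists were named after their values were seen. Promoters came from RefSeq (GRCm38.p6), matched by symbol, and motifs were searched on both strands. Shared sequence was measured as the share of 100-base windows of a gene's annotated transcripts that occur in another gene. Alternatives covered the pseudocount, the filter, scaling, the libraries fitted, weights, covariates, a replicate block and leaving out each library. Some genes of the lists are not reported here by name.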

Additional observations from a re-analysis of the deposited data

Results flagged for a closer look

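In 4 KO-labelled libraries of 1 year, a single library stood far from the other 3 for 7 of 110 named genes and 1 of 29 lists. Chance alone marks about 1 in 20 groups, so 8 of 139 is near the share that chance gives. Replicate 1 had Mylk3 at 57.3, with the others at 125 to 127, and Il18rap at 936, with the others at 596 to 621. Replicate 2 had Aoah at 152, with the others at 40.9 to 50.8, and Gpr137b-ps, a pseudogene, at 385, with the others at 539 to 562. Replicate 3 had Gm18562, a predicted gene, at 2.68, with the others at 0. Replicate 4 had Tuba1c at 11154, with the others at 12965 to 13275, Msmo1 at 1348, with the others at 1503 to 1532, and a mean log2 level of the immediate early genes of 11.5, with the others at 12.6 to 12.8.

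The difference between germ-free and KO-labelled HSCs itself differed between the ages for Rbpjl, by 5.27 on the log2 scale, and for Clca3a1, by 1.63, both by the interaction test.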

How the results depend on the processing

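Of the 259 calls at 1 year, 54 were also called with only the groups compared in the fit (67 calls). The count was 83 with array quality weights, 149 with KO-labelled replicate 1 placed at 2 months and 3 with the heat shock covariate. Leaving out 1 library gave 116 to 251, while other pseudocounts, filters and scalings gave 246 to 289. With the replicate number as a block 164 genes (60 higher, 104 lower) were called. The numbers share no stated animal, and the deviations of same-numbered libraries correlated at 0.0073 and -0.0091.

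At 2 months (228) the count was 43 with only the groups compared, 144 with weights, 19 with the heat shock covariate and 155 to 201 without 1 library. The interaction count (2) was 1 with a pseudocount of 5, 18 with no filter, 0 with only the groups compared, 1 with weights and 1 to 17 without 1 library. Germ-free against WT (841) gave 462 with weights, 524 with the myeloid covariate, 418 with the replicate block, 531 with the heat shock covariate and 150 to 1221 without 1 library. KO-labelled against WT (221) gave 356 with only the groups compared, 474 with weights, 129 with KO-labelled replicate 1 at 2 months, 62 with the immediate early covariate, 141 with the replicate block, 9 with the heat shock covariate and 98 to 239 without 1 library. The cause of these shifts was not tested.

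Il1r1 lay between 0.03 and 0.29 without 1 library and at -0.44 with the heat shock covariate. With that covariate the difference also changed sign for Dnajb1 (0.38), Selp (0.012), Cd74 (0.27) and Mpo (1.22). Dnajb1 is itself a member of the list whose level is the covariate, so its change of sign is not independent of that fit. Mpo, which was lower with all libraries, was 0.26 with the replicate block and -1.02 to 0.43 without 1 library, Kit -0.42 to 0.15 without 1 library, and Ly6a -0.040 to 0.11 without 1 library and -0.040 with KO-labelled replicate 1 at 2 months. A read was worth 1.78 and 1.16 normalized counts in the 2 germ-free libraries, which limits genes listed near 0.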

Other observations

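Called genes lay close together in 4 stretches of the genome, chosen after the values were seen and given with no test. On chromosome 15, over 3 Mb from 98 Mb, 8 of 63 tested genes were called (12.7%, against 1.53% of all genes), 7 of them at both ages. They are Kmt2d, Tuba1a, Tuba1c, Smarcd1, Lima1, Mettl7a2, Bin2 and Galnt6. On chromosome 8, from 84 to 86 Mb, 8 of 56 were called (14.3%), 6 of them at both ages. On chromosome 13, 5 of 18 were called from 12 to 14 Mb (27.8%), all 5 at both ages, and 10 of 88 from 20 to 24 Mb (11.4%), a stretch that holds the Hist1 histone cluster.

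The share of transcript windows found in other genes was high for several of these genes, at 65.1% for Tuba1a, 46.0% for Tuba1c and 50.4% for Mettl7a2. It was 0 for Bin2 and Galnt6.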
